A study of Mus musculus with 19 samples.

Results

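The genes described here are 10 markers of endothelial cells, the cells that line blood vessels. They are Pecam1, Cdh5, Kdr, Flt1, Tek, Tie1, Vwf, Emcn, Erg and Egfl7. They were chosen by name, as established markers, and all 10 were among the 24972 genes listed and among the 16625 genes tested. RNA had been sequenced from the plantaris tendon, a slender ankle tendon of the mouse hindlimb, in 19 libraries. Scx- mice, in which the tendon transcription factor scleraxis (Scx) had been targeted for deletion, gave 4 libraries each at day 7 and day 14 of a growth stimulus. Stimulated Scx+ mice gave 4 libraries at each of the same times, and all 16 stimulated libraries came from mice given tamoxifen. The control group was 3 libraries from Scx+ mice that had neither tamoxifen nor the stimulus. The labels do not give the alleles or driver of the deletion, the kind of stimulus, the strain, the sex or the age, and do not say that replicates were separate animals. The p-values therefore measure the spread between samples, which may be technical. Stimulus and tamoxifen cannot be told apart in any comparison with control, and no unstimulated Scx- group was analysed here.

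Endothelial cells are joined to each other by adhesion proteins and respond to vascular endothelial growth factors (VEGFs) and angiopoietins, which reach them from neighbouring cells and steer the sprouting, permeability and upkeep of vessels. Tendon is sparsely vascularised, and the vessels of a tendon lie mainly in its outer sheath and between its fascicles. In bulk tissue RNA the level of an endothelial gene depends on the number of endothelial cells and on the RNA each of them holds. Because the signal is scaled between libraries, it also depends on how much RNA other cells supply. Fewer endothelial cells, less RNA per cell and more RNA from other cells cannot be told apart in these libraries.

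By role, Pecam1 and Cdh5 encode adhesion proteins of the contacts between endothelial cells, the second being VE-cadherin of the adherens junction. Kdr encodes the main signalling receptor for VEGF-A, and Flt1 a receptor that binds VEGF-A, VEGF-B and placental growth factor tightly and is also made as a soluble form that captures these ligands. Tek encodes the receptor of the angiopoietins and Tie1 its related partner receptor. Vwf encodes von Willebrand factor, a clotting and platelet adhesion protein stored in endothelial granules and also made by megakaryocytes. Emcn encodes endomucin, a surface sialomucin of capillary and venous endothelium, Erg an ETS family transcription factor of the endothelial lineage, and Egfl7 a secreted endothelial protein. Platelets and several leukocytes also carry Pecam1, and some monocytes and macrophages carry Flt1.

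Kdr and Flt1 lie on the minus strand of chromosome 5, at chr5:75932827-75978458 and chr5:147561604-147726011 (GENCODE M21 on GRCm38). Tek on the plus strand at chr4:94739289-94874976 and Tie1 on the minus strand at chr4:118471191-118490061 share chromosome 4. Pecam1 is at chr11:106654217-106750628, Cdh5 at chr8:104101625-104144511, Vwf at chr6:125546774-125686679, Emcn at chr3:137341067-137432185, Erg at chr16:95359169-95586593 and Egfl7 at chr2:26580014-26593120. Exons of Egfl7 share 264 bases with Gm20532 on the same strand and 64 with Agpat2 on the other, besides 73 with Mir126a and 58 with Mir126b inside it, and how shared reads were assigned is not stated, so values of Egfl7 are uncertain to that extent. The other 9 genes share no exon bases with another annotated gene. The promoters of the receptor genes are printed because ETS factors such as Erg are known to bind GGAAG in promoters of endothelial genes. Each run is the 300 bases from RefSeq (GRCm38.p6), 5′ to 3′ on the strand of the gene, that reach to 50 bases past its start, with every GGAAG in capitals, written CTTCC where it lies on the other strand.
Flt1, chr5:147725962-147726261: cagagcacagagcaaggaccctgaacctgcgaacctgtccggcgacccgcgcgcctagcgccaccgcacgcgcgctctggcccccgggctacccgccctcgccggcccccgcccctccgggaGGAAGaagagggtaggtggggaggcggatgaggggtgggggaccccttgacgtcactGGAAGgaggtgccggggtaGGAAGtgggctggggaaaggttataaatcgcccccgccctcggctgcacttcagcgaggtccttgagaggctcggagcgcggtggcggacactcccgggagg
Kdr, chr5:75978406-75978705: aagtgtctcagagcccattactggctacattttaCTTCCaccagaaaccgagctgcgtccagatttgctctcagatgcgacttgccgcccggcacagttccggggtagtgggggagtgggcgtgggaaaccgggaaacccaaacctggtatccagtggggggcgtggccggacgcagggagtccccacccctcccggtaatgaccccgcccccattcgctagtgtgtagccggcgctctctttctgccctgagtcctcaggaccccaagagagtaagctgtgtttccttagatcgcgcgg
Tie1, chr4:118489800-118490099: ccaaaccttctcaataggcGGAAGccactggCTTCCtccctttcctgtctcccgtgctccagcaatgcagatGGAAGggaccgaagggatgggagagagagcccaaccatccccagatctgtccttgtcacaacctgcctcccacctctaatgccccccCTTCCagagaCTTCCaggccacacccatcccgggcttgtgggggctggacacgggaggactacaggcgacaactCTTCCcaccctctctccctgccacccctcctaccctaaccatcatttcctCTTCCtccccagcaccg
Tek, chr4:94739039-94739338: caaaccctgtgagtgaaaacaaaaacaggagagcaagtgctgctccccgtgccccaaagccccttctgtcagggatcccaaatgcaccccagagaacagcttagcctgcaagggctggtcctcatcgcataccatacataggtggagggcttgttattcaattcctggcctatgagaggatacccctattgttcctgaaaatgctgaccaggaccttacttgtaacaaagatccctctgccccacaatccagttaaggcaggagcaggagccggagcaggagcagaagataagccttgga
The Flt1 run holds 3 matches, the Kdr run 1, the Tie1 run 7 and the Tek run 0. The promoter table held 11 promoters for 7 of the 10 genes, and 8 of these 11 had at least 1 match on either strand, against 71.4% of all 32851 promoters of the same length. Such a match is a description of letters and not a binding site.

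The targeted gene followed the labels. Scx ranged from 1.66 to 17.2 units in the Scx- libraries, 2096 to 8044 units in the stimulated Scx+ libraries and 319 to 593 units in the control libraries. A unit is the authors' scaled signal after rescaling between libraries, and the number of reads behind it is unknown. The deposited signal summed to 36.6 M to 79.8 M units per library. Control libraries stood apart in composition. Skeletal muscle fibre genes took 0.0850% to 21.5% of the signal in the stimulated libraries, among which Scx- day 14 replicates 1 and 2 held 18.4% and 21.5%, and 27.6% to 32.7% in the control libraries. Tendon lineage genes were read in every group, and 12 of them took a mean of 5.09% of the signal in Scx- day 7, 8.14% in Scx+ day 7, 3.83% in Scx- day 14, 7.41% in Scx+ day 14 and 0.534% in control.

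All 10 endothelial genes were read in every library, and the lowest value of any was 587 units, for Emcn in Scx- day 7 replicate 3. Their summed signal was 0.0337% to 0.0767% of a library in Scx- day 7, 0.0506% to 0.0906% in Scx+ day 7, 0.0294% to 0.1001% in Scx- day 14, 0.0400% to 0.0802% in Scx+ day 14 and 0.0324% to 0.0921% in control, so all 5 groups overlapped. Per kilobase of exon, Pecam1 and Cdh5 held the highest 2 places in each group's mean signal and Egfl7 and Tie1 the next 2. In control, Pecam1 reached 1423 ± 662 units per kb and Cdh5 1141 ± 386 (SD, n = 3), and these overlapped. Flt1 had the lowest mean per kilobase in each stimulated group, with 90.9 ± 37.5 units per kb in Scx- day 7, 126 ± 31.4 in Scx+ day 7, 131 ± 59.8 in Scx- day 14 and 96.9 ± 52.5 in Scx+ day 14 (SD, n = 4 each). In control it ranked 8 of 10, at 283 ± 78.8 units per kb, next to Emcn at 282 ± 159 and Kdr at 276 ± 78.8 (SD, n = 3), which did not differ beyond their spread.

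**Figure D1:**
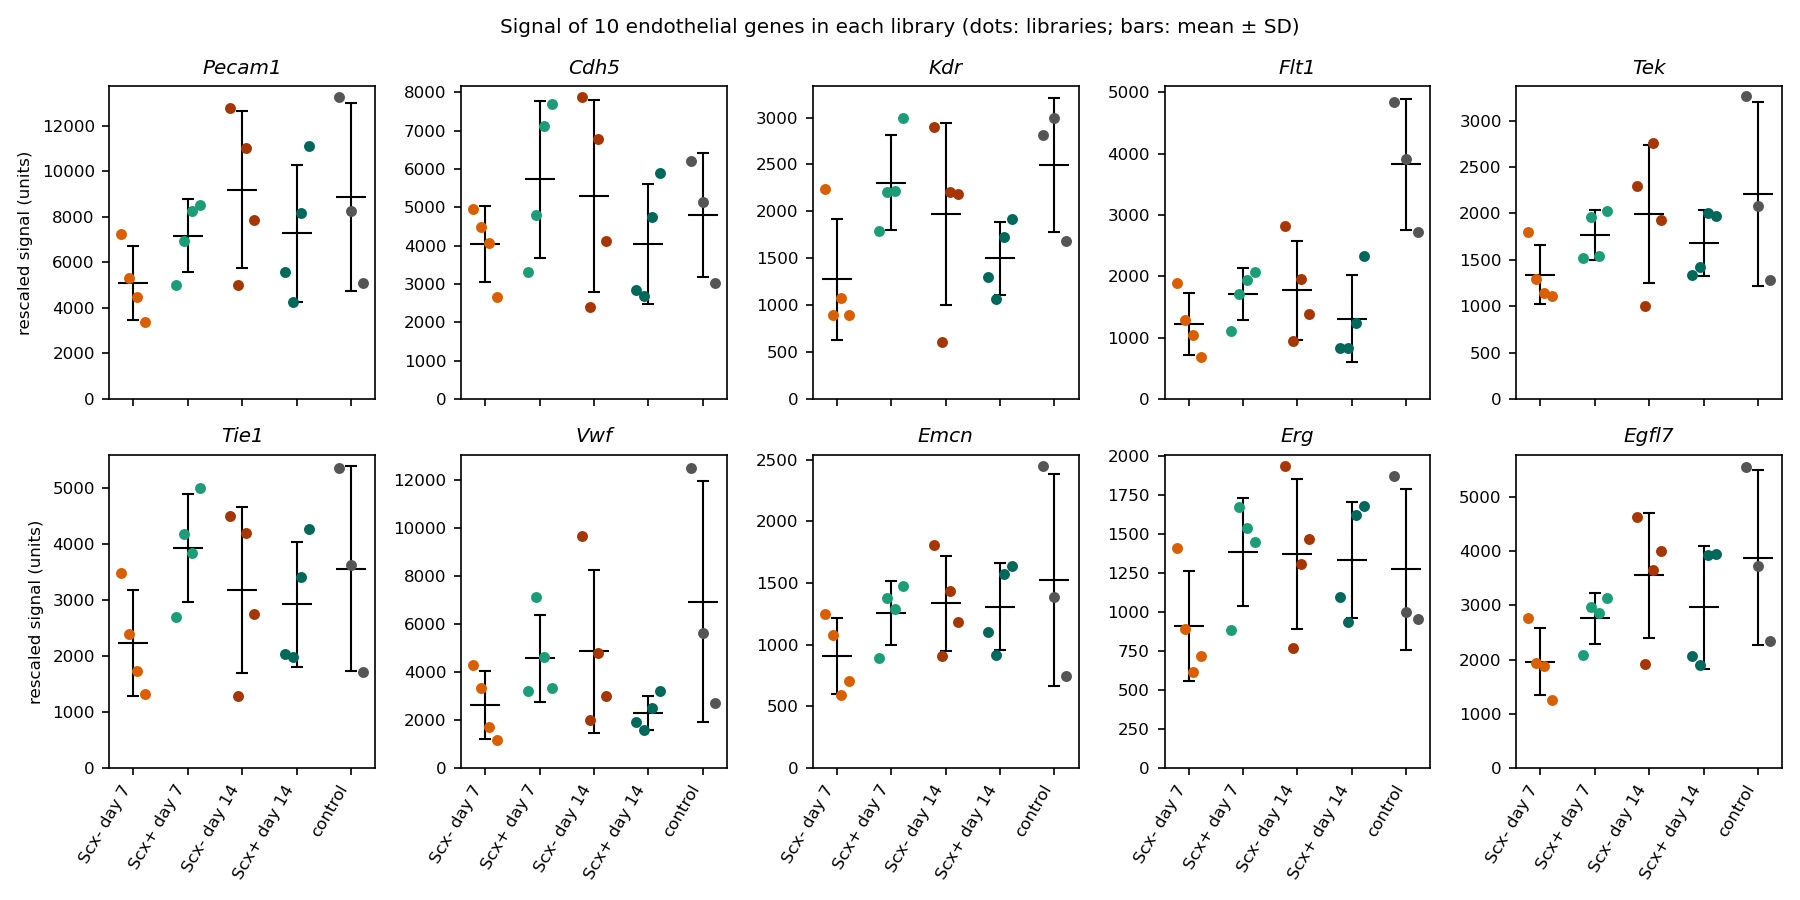
Rescaled signal (units, linear axis from 0) of each of the 10 genes in every library, with the mean and SD of each group as bars; groups are Scx- and Scx+ at day 7, Scx- and Scx+ at day 14, and control. Flt1 sits at 688 to 2816 units in the 16 stimulated libraries and at 2721 to 4842 units in control. It overlaps control only through Scx- day 14 replicate 1, while the other genes overlap between control and each stimulated group.

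Flt1 was the 1 gene of the list called lower in all 4 stimulated groups against control. The calls in Scx+ day 7 and Scx- day 14 were lost with the muscle covariate (-0.48, limma adjusted p = 0.569, and -0.99, 0.0585) and on leaving out some single libraries. Flt1 had 1893, 1282, 1048 and 688 units in the Scx- day 7 libraries and 1110.2, 1713, 1934 and 2069 units in the Scx+ day 7 libraries. At day 14 it had 2816, 945, 1953 and 1382 units in Scx- and 834, 824, 1245 and 2330.5 units in Scx+. The control libraries had 4842, 3918 and 2721 units. Every stimulated library except Scx- day 14 replicate 1 was below all 3 control libraries. Among all tested genes, 27.3% lay wholly below control in Scx- day 7, 28.9% in Scx+ day 7 and 25% in Scx+ day 14, and in Scx- day 14, where Flt1 overlapped, 17.4% did. On the log2 scale Flt1 fell by 1.69 ± 0.41 (SE) in Scx- day 7, a 3.23-fold lower level (limma, adjusted p = 0.0020), and by 1.16 ± 0.41 in Scx+ day 7, a 2.24-fold lower level (adjusted p = 0.0206). It fell by 1.18 ± 0.41 in Scx- day 14 (2.27-fold, adjusted p = 0.0269) and by 1.65 ± 0.41 in Scx+ day 14 (3.13-fold, adjusted p = 0.0027). These 4 comparisons share the 3 control libraries. The authors' deposited table, with its own fit, also lists Flt1 as lower in each stimulated group, with log2 fold changes of -1.61 in Scx- day 7, -1.15 in Scx+ day 7, -1.09 in Scx- day 14 and -1.53 in Scx+ day 14 and adjusted p-values of 6.1e-05, 0.00011, 0.0307 and 0.00057 in that order.

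Against control, a change was common among all genes, so the counts of the list are read beside that. In Scx- day 7, Flt1 and Egfl7 were called lower, which is 2 of 10 genes where 25.9% of all tested genes were called lower and 58.2% in either direction. In Scx+ day 7, 1 of 10 was called, Flt1, where 27.5% of all genes were called lower and 61.3% in either direction. In Scx- day 14, 1 of 10 was called, again Flt1, beside 18.3% lower and 43.9% in either direction among all genes. In Scx+ day 14, Flt1 and Vwf were called, 2 of 10, beside 25% and 55.9% among all genes. These 6 calls were all in the lower direction. The median log2 fold change of the list was -0.70 in Scx- day 7, -0.18 in Scx+ day 7, -0.12 in Scx- day 14 and -0.29 in Scx+ day 14, beside 0.14, 0.18, 0.12 and 0.15 for all tested genes in that order.

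Egfl7 had 2772, 1942, 1881 and 1250.1 units in Scx- day 7, against 5563, 3736 and 2347 units in control. The ranges overlapped through 1 library of each group. It fell by 0.95 ± 0.35 on the log2 scale (SE; limma, adjusted p = 0.0288), and in the other stimulated groups it was at -0.42 (Scx+ day 7), -0.11 (Scx- day 14) and -0.39 (Scx+ day 14), none called. The Egfl7 call was lost without control replicate 1 (adjusted p = 0.158), control replicate 2 (0.0684) or Scx- day 7 replicate 4 (0.0917), and with the muscle covariate (0.173).

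Vwf had 1910.1, 1576, 2476 and 3209 units in Scx+ day 14, against 12478, 5609 and 2706 units in control, whose 3 libraries spread over a wider range than those of any other group. It fell by 1.38 ± 0.57 on the log2 scale (SE; limma, adjusted p = 0.0487). That call was lost on leaving out control replicate 1 (-0.82, adjusted p = 0.249), control replicate 2 (0.0928) or Scx+ day 14 replicate 1, 2 or 3 (0.0941, 0.109 and 0.0657), and it was kept in 4 of the 14 alternatives run. The authors' deposited table lists Vwf as lower in Scx+ day 14 (-1.57, adjusted p = 0.00222) and in Scx- day 7 (-1.39, 0.0303). In Scx- day 7 Vwf had 4272, 3322, 1721 and 1164 units and a log2 fold change of -1.31 ± 0.57 against control, outside the threshold (limma, adjusted p = 0.0569) but called in 3 of the 14 alternatives run. Megakaryocytes also make Vwf, and 10 megakaryocyte and platelet genes took 0.0086% to 0.0160% of the signal in Scx+ day 14 and 0.0042% to 0.0067% in control, where 5 of them were called higher and 1 lower. Their part in the level of Vwf was not tested.

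Kdr, the other VEGF-A receptor, was not called in any stimulated group in the model of all 5 groups. It had 2238, 898, 1072 and 894 units in Scx- day 7 and 1788, 2207, 2220.5 and 2998 units in Scx+ day 7. At day 14 it had 2896, 602, 2210.2 and 2190.0 units in Scx- and 1299.9, 1063, 1723 and 1914 units in Scx+, against 2808, 2994 and 1679 units in control. In Scx- day 7, 3 of 4 libraries were below every control library and 1 was not, with a log2 fold change of -1.04 ± 0.44 (SE; limma, adjusted p = 0.0505). This sits at the threshold: the call was made in 5 of the 14 alternatives run, among them the deposited scale (0.0376), a fit of these groups alone (0.0360), and leaving out control replicate 3 (0.0358) or Scx- day 7 replicate 1 (0.0144), and the authors' deposited table lists Kdr as lower there (-0.93, adjusted p = 0.0410). In Scx+ day 14 Kdr stood at -0.73 ± 0.44 (limma, adjusted p = 0.166). It was called there in 1 of the 14 alternatives, the fit of these groups alone (limma, 0.0457), and the authors' deposited table lists it as lower (-0.72, adjusted p = 0.0429).

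The junction genes and the remaining members showed no call against control. Cdh5, with 2663 to 4968 units in Scx- day 7, 3308 to 7709.6 in Scx+ day 7, 2393 to 7892 in Scx- day 14, 2683 to 5909.6 in Scx+ day 14 and 3021 to 6209 in control, had log2 fold changes of -0.22, 0.24, 0.06 and -0.26 in the order Scx- day 7, Scx+ day 7, Scx- day 14 and Scx+ day 14. Its 95% intervals reached from -1.12 to 1.10, so a change of about that size either way was not resolved. Pecam1 had -0.74, -0.23, 0.07 and -0.27 in the same order. Tek lay between -0.65 and -0.14, Tie1 between -0.62 and 0.26, Emcn between -0.65 and -0.08 and Erg between -0.49 and 0.15. For each of these 4 the lowest of the 4 values was that of Scx- day 7.

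**Figure D2:**
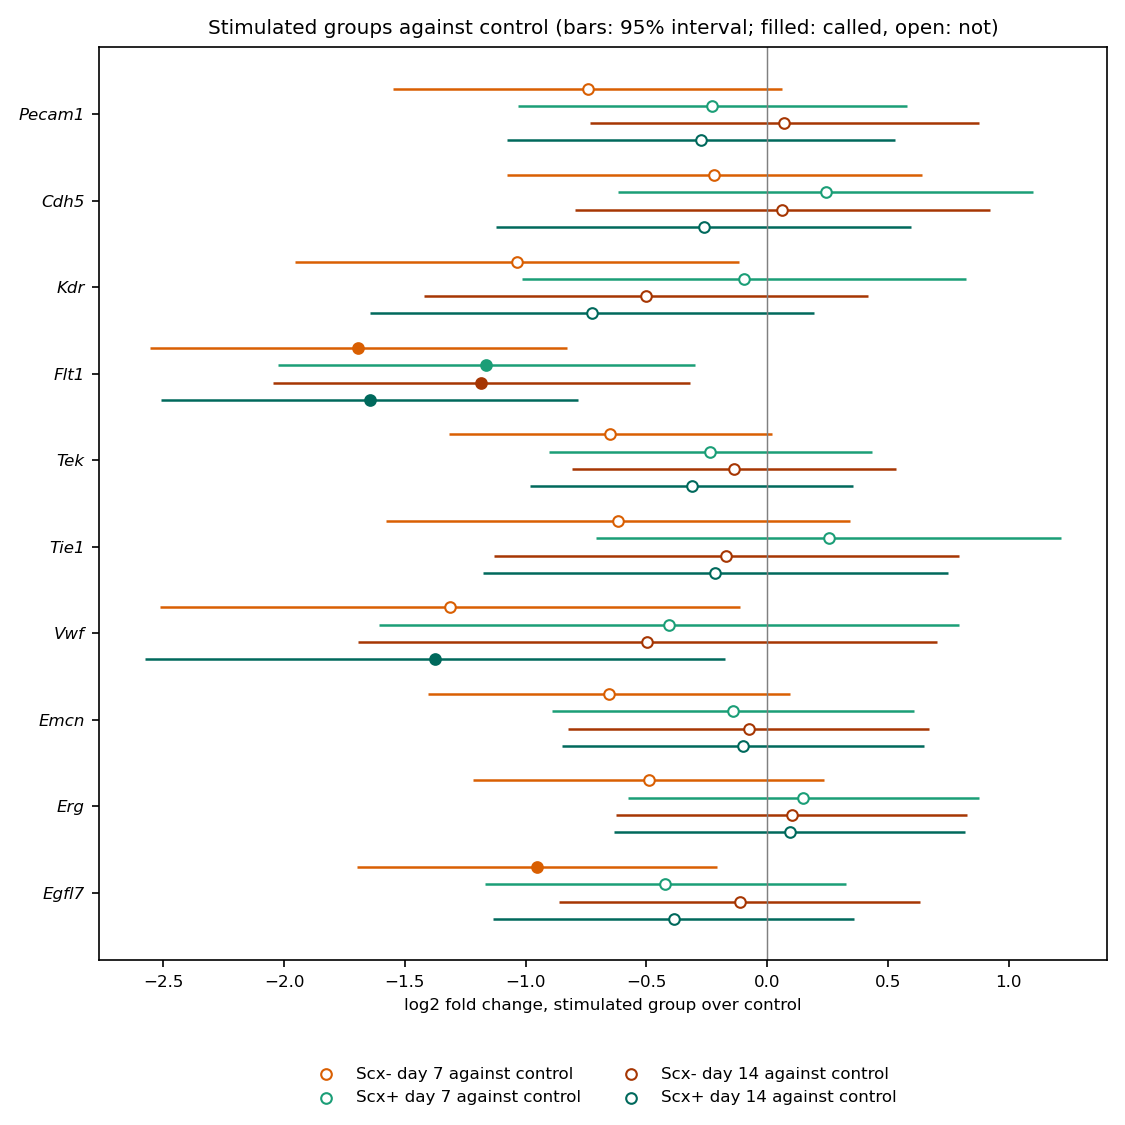
Log2 fold change of each gene in the Scx- and Scx+ groups at day 7 and day 14, each over control, with 95% intervals from limma; filled points passed an adjusted p of 0.05. Flt1 is filled in all 4 comparisons, Egfl7 in Scx- day 7 and Vwf in Scx+ day 14.

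Libraries of the stimulated groups also differed from control in the tissue they held, and these values stand beside each control comparison above. Muscle fibre genes averaged 3.68% ± 2.82 of the signal in Scx- day 7, 1.34% ± 1.32 in Scx+ day 7, 12.5% ± 8.70 in Scx- day 14 and 4.82% ± 4.10 in Scx+ day 14 (SD, n = 4 each), against 29.6% ± 2.77 in control (SD, n = 3). Adipocyte genes ranged from 0.0151% to 0.833% in stimulated libraries and from 0.664% to 0.759% in control. Of 11 adipocyte genes, 11 were called lower in Scx- day 7, 11 in Scx+ day 7, 9 in Scx- day 14 and 10 in Scx+ day 14, with median log2 fold changes of -4.61, -4.77, -3.23 and -4.87 in that order. Leukocyte genes ranged from 0.0735% to 0.540% in stimulated libraries and from 0.0235% to 0.0593% in control. With the mean level of the muscle genes as a covariate, Flt1 was still called lower in Scx- day 7 (-1.25, adjusted p = 0.0435) and Scx+ day 14 (-1.23, 0.0469). It was no longer called in Scx+ day 7 (-0.48, 0.569) or Scx- day 14 (-0.99, 0.0585). Without the muscle-rich Scx- day 14 replicates 1 and 2, Flt1 stood at -1.18 against control (adjusted p = 0.0405), as it did with them. Single libraries also decided calls: the Flt1 call was lost without control replicate 1 in Scx+ day 7 (adjusted p = 0.0835) and Scx- day 14 (0.0970), without control replicate 2 in the same comparisons (0.0555 and 0.0719), without Scx+ day 7 replicate 1 (0.0639) and without Scx- day 14 replicate 2 (0.0761) or 4 (0.0663). In Scx- day 7 and Scx+ day 14 it was kept under each of the 14 alternatives run. What adipose tissue, leukocytes or platelets contribute to these differences was not tested.

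The level of Flt1 relative to the junction gene Cdh5 separated the stimulated from the control libraries with no overlap. This ratio was chosen after the values were seen and is given as a description. On the log2 scale Flt1 less Cdh5 was -1.96 to -1.39 in Scx- day 7, -1.90 to -1.48 in Scx+ day 7, -1.79 to -1.34 in Scx- day 14 and -1.93 to -1.34 in Scx+ day 14, against -0.40 to -0.15 in control. No stimulated library reached the control range. Of all other tested genes, 2.5% were likewise below control in all 16 stimulated libraries when taken relative to Cdh5, and 6.72% were above it. None of the other 8 genes of the list separated the groups in this way: Kdr less Cdh5, for one, was -2.32 to -0.89 in the stimulated libraries and -1.14 to -0.78 in control. The pair of muscle-rich Scx- day 14 libraries, with 18.4% and 21.5% of muscle signal, stood at -1.49 and -1.34, and the second of these was the highest of the 16 stimulated libraries, next to -1.34 in Scx+ day 14 replicate 4, which held 9.92% of muscle signal. The part of muscle in this ratio was not tested. Flt1 less Kdr did overlap, at -0.69 to 0.65 in the stimulated libraries and 0.39 to 0.79 in control, and its 2 highest stimulated values, 0.65 and 0.51, came from libraries with 21.5% and 4.18% of muscle signal.

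**Figure D3:**
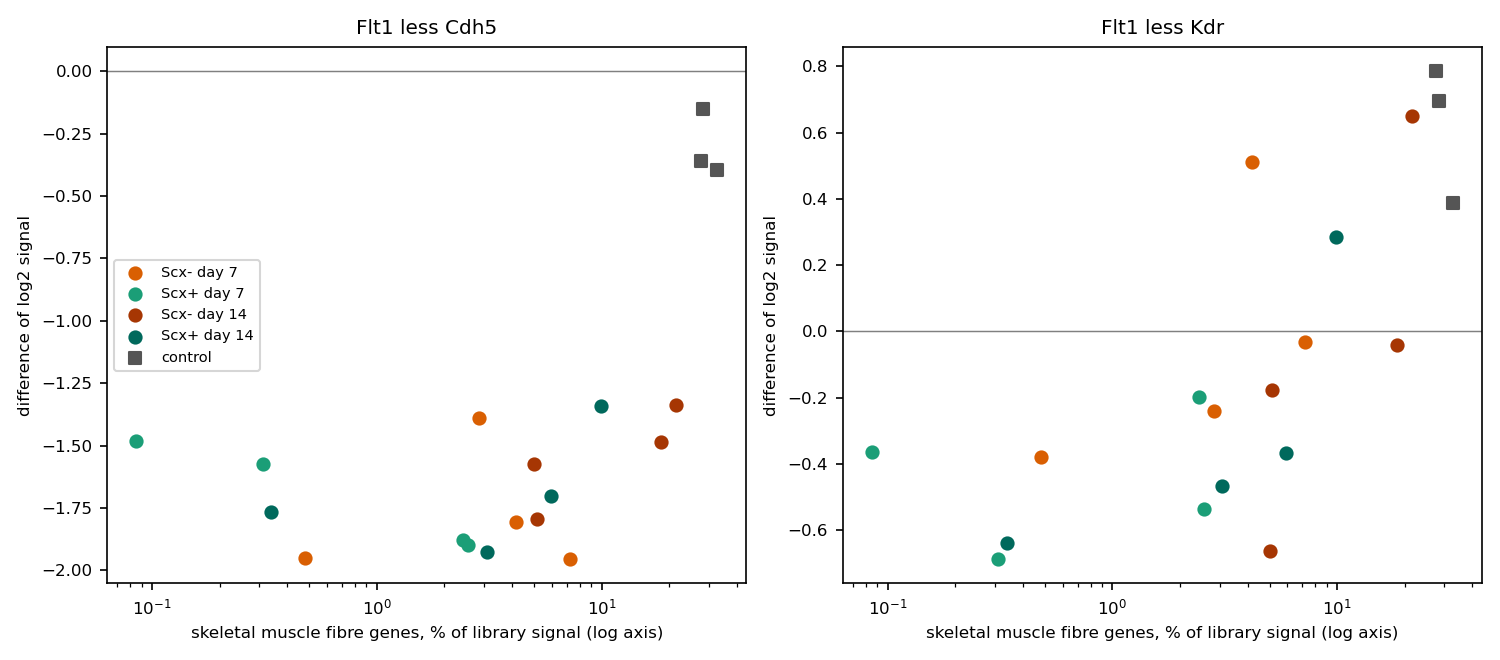
Difference of log2 signal between Flt1 and Cdh5 (left) and between Flt1 and Kdr (right) in each of the 19 libraries, against the share of signal taken by skeletal muscle fibre genes (percent, log axis). In the left panel all stimulated libraries lie at or below -1.34 and the control squares at -0.40 to -0.15; in the right panel the groups overlap.

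The study's main comparison sets Scx- against Scx+ tendons at the same day of growth. At day 7 no endothelial gene of the list was called (0 of 10; limma, adjusted p from 0.583 to 0.869), where 0.77% of all tested genes were called in either direction. The estimates of all 10 genes were negative, with a median of -0.53, beside a median of 0.02 over all tested genes, of which 47.3% were negative. Kdr had the most negative estimate, at -0.94 ± 0.40 (SE), and was the 1 gene with an unadjusted p below 0.05 (0.0321, adjusted p = 0.583), a share of 7.26% among all genes. Its 4 Scx- libraries overlapped the 4 Scx+ libraries through the single Scx- value of 2238 units. Vwf stood at -0.91 ± 0.53, Tie1 at -0.87 ± 0.42 and Erg at -0.64 ± 0.32. The remaining 6, Egfl7, Flt1, Pecam1, Emcn, Cdh5 and Tek, lay between -0.53 and -0.41. All 10 genes overlapped between the genotypes, while 3.71% of all genes lay wholly higher and 4.17% wholly lower in Scx-. The 10 genes are not separate pieces of evidence, since they varied together from library to library.

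At day 14 again 0 of 10 were called (limma, adjusted p from 0.428 to 0.995, and 0 with an unadjusted p below 0.05), where 0.517% of all tested genes were called and 14.6% had such an unadjusted p. The 10 estimates were positive on this scale, with a median of 0.25, beside 0.02 over all genes, of which 51.6% were positive. Vwf had the highest, at 0.88 ± 0.53 (SE), from 9659.7, 1982, 4804 and 2991 units in Scx- against 1910.1, 1576, 2476 and 3209 units in Scx+. Without Scx- replicate 1, the highest of these libraries, it was 0.47. The ranges overlapped for all 10 genes, where 1.87% of all genes lay wholly higher and 2.94% wholly lower in Scx-. Flt1 stood at 0.46 ± 0.38, Pecam1 at 0.34 ± 0.35 and Cdh5 at 0.33 ± 0.38. Erg, Emcn and Tie1 were at 0.01, 0.02 and 0.05. The sign depended on the scaling for some: without rescaling Kdr, Tek, Tie1, Emcn and Erg were below 0, and Emcn and Erg were below 0 with trimmed-mean factors.

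The change in the genotype difference between the 2 days was itself tested. Scx- less Scx+ at day 14, less the same at day 7, was above 0 for all 10 genes, with a median of 0.83, where 50.9% of all genes were above 0. None was called (limma, adjusted p of 1.0 after rounding for each), beside 0.018% of all genes. Vwf had the highest value, at 1.79 ± 0.74 (SE; limma, unadjusted p = 0.0282), and was the 1 gene with an unadjusted p below 0.05, as 4.34% of all genes had. Kdr followed at 1.16 ± 0.57. The authors' deposited table likewise lists no endothelial gene of the list with an adjusted p below 0.05 between the genotypes at either day. Its lowest is Tie1 at day 7, with -0.86 and 0.0791.

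**Figure D4:**
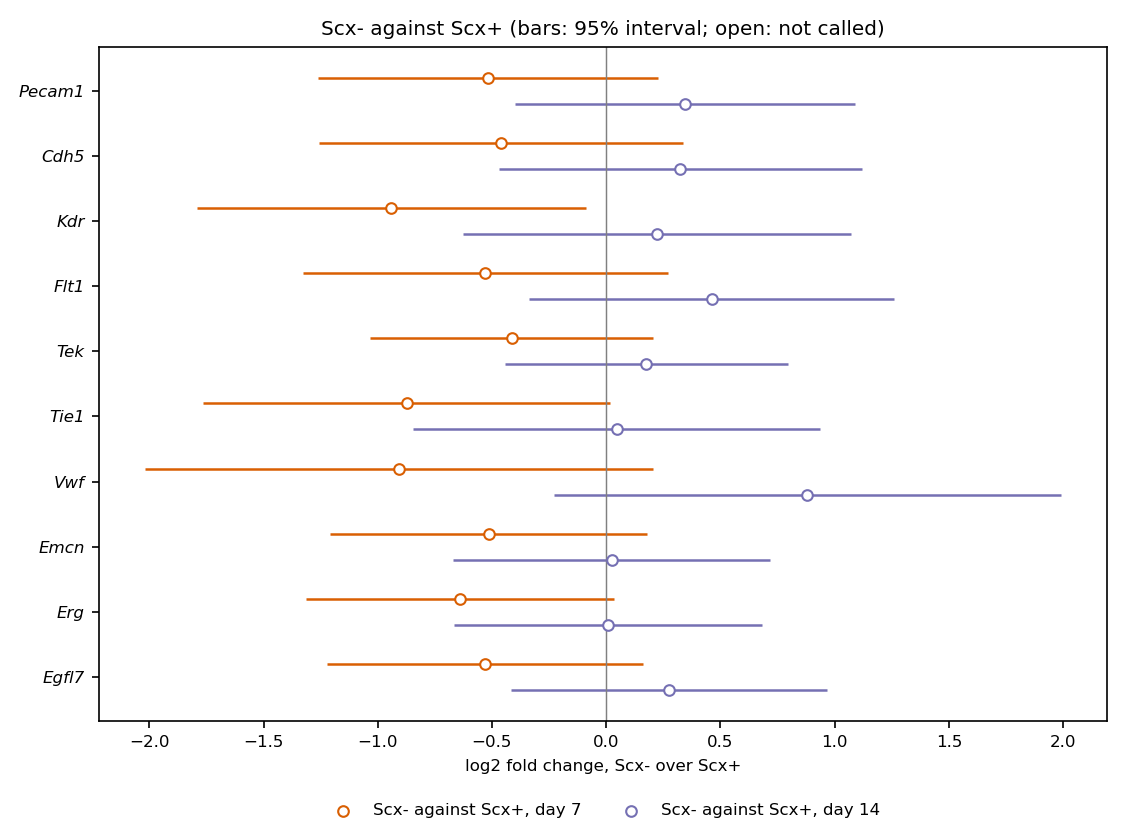
Log2 fold change of each gene in Scx- over Scx+ at day 7 and at day 14, with 95% intervals from limma. The day 7 estimates lie at -0.94 to -0.41 and the day 14 estimates at 0.01 to 0.88, no point passed an adjusted p of 0.05, and all intervals but that of Kdr at day 7 hold 0.

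Between the genotypes, erythroid genes were lower in Scx- at day 7. They took 0.0026% to 0.0401% of the signal in Scx- libraries and 0.847% to 3.77% in Scx+ libraries, and 8 of the 11 tested were called lower in Scx-. Among them Bpgm, a red cell glycolytic enzyme, stood at -2.63 ± 0.31 and Alas2, the first enzyme of erythroid haem synthesis, at -7.32 ± 0.88 (SE; limma, adjusted p = 0.00059 and 0.00082). The part of erythroid RNA in the endothelial estimates of day 7 was not tested. At day 14 no erythroid gene was called between the genotypes, with 0.0072% to 0.116% of the signal in Scx- and 0.0726% to 0.255% in Scx+. Muscle fibre genes were not called at either day, but all 22 had positive estimates for Scx-, with medians of 2.19 at day 7 and 1.95 at day 14. Of 12 leukocyte genes, Fcgr1, an Fc receptor of monocytes and macrophages, was called higher in Scx- at day 7 (1.36 ± 0.30; limma, adjusted p = 0.0388), and 9 had positive estimates. At day 14 none was called. Leukocyte genes took 0.219% to 0.540% of the signal in Scx- day 7 and 0.164% to 0.282% in Scx+ day 7, and their part in the endothelial estimates was not tested. Megakaryocyte and platelet genes at day 14 were above 0 in Scx- for 10 of 10, with 0 called, beside the positive estimate of Vwf. With the muscle covariate the median of the endothelial list was -0.68 at day 7 and 0.19 at day 14, with 0 genes called.

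Between day 14 and day 7 no gene of the list was called in either genotype. In Scx- all 10 were above 0 at day 14 relative to day 7, with a median of 0.56, where 51.5% of all genes were above 0 and 5.25% were called. Egfl7, at 0.84 ± 0.33 (SE; limma, adjusted p = 0.145), and Pecam1, at 0.82 ± 0.35 (0.187), had unadjusted p-values below 0.05, as 21.9% of all genes did. Pecam1 had 12801, 5011, 11034 and 7882 units at day 14 and 7229, 5310.2, 4458 and 3396 units at day 7, with overlap. In Scx+ 8 of 10 were below 0, with a median of -0.27, where 49.5% of all genes were below 0 and 0.0301% were called. None of the 10 had an unadjusted p below 0.05, against 10.6% of all genes. Vwf was the exception to overlap: its Scx+ values of 1910.1, 1576, 2476 and 3209 units at day 14 all lay below those of 3219.8, 7104, 4634 and 3323 units at day 7, as 6.11% of all genes did. Its log2 fold change was -0.97 ± 0.53 (SE; limma, adjusted p = 0.552). The authors' deposited table lists Vwf as lower at day 14 in Scx+ (-0.98, adjusted p = 0.0330).

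Replicate libraries of the same group differed in these genes, and the 10 genes moved together between them. After removal of group means, Pearson's r between pairs of the genes ran from 0.68 to 0.97 with a median of 0.87 over the 19 libraries, a description in which the points of a library share its tissue composition and scaling. In Scx- day 14, replicate 1 had the highest level of 9 of the 10 genes and replicate 2 the lowest of all 10. For Pecam1 these were 12801 and 5011 units. In Scx- day 7, replicate 1 was highest for all 10 and replicate 4 lowest for 8. In Scx+ day 7, replicate 1 was lowest for all 10, and in Scx+ day 14 replicate 4 was highest and replicate 2 lowest for 9 each. In control, replicate 1 was highest for 9 and replicate 3 lowest for all 10. Scx- day 14 replicates 1 and 2, at the 2 ends for the endothelial genes, held 18.4% and 21.5% of muscle signal, while Scx+ day 14 replicate 4 and Scx+ day 7 replicate 4, highest for 9 and 8 genes, held the most muscle signal of their groups, 9.92% and 2.55%. Other groups differed in this. In Scx- day 7, replicate 1, highest for all 10, held 2.84%, and replicate 3 held the most, 7.23%. Control replicate 1, highest for 9, held the least muscle signal of its group, 27.6%. With group means removed, the mean of the 10 genes had r = 0.98 with the mean of 34 other endothelial genes. It had 0.81 with arterial and tip cell genes, 0.81 with venous, 0.58 with lymphatic, 0.68 with pericyte and mural and 0.53 with adipocyte genes. For VEGF and angiopoietin ligands and co-receptors r was 0.46, for megakaryocyte and platelet genes 0.33 and for erythroid genes 0.32. It was 0.28 with tendon lineage genes, 0.14 with muscle fibre genes and -0.63 with leukocyte genes.

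**Figure D5:**
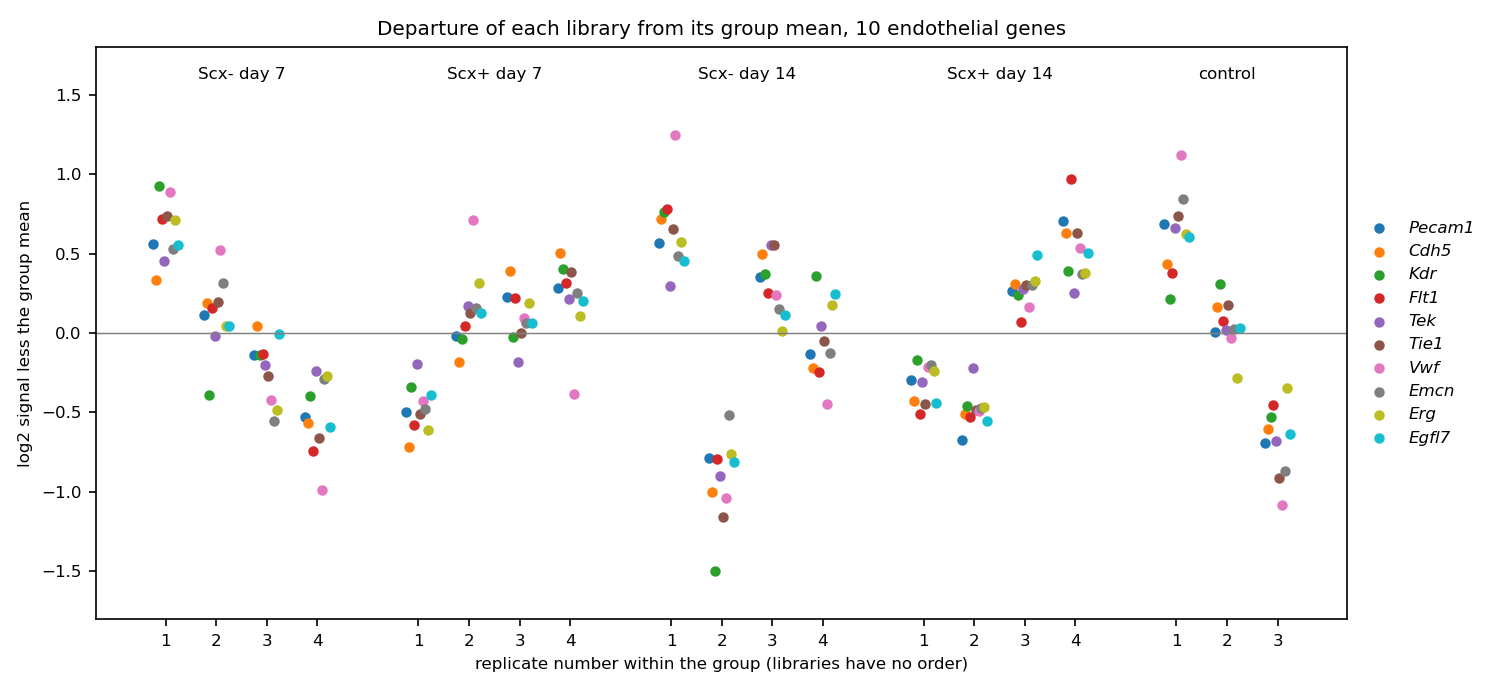
Log2 signal of each of the 10 genes in each library less the mean of its group, for the 5 groups. The points of a library lie on the same side of 0 for most genes, as in Scx- day 14, where replicate 1 is above 0 and replicate 2 below 0 for all 10.

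Outside the list, the genes whose log2 level followed the mean of the 10 most closely over all 19 libraries were She (r = 0.98), Fgd5 (0.97), Mmrn2 (0.96), Plvap (0.95), Nos3 (0.95), Esam (0.94), Adcy4 (0.94), Rasip1 (0.94), Ptprb (0.94) and Tinagl1 (0.93). Nos3 encodes endothelial nitric oxide synthase, Plvap a component of the diaphragms of fenestrae and caveolae, and Ptprb a phosphatase that acts on the product of Tek. Of these, 7 were among the 34 other endothelial genes listed for this purpose. These are correlations over libraries in 5 groups, with no test.

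The wider endothelial list had no genotype calls either. Of 34 other endothelial genes, all tested, 0 were called in Scx- against Scx+ at day 7 (3 with an unadjusted p below 0.05, median -0.52) and 0 at day 14 (0 unadjusted, median 0.19). Against control, 5 were higher and 10 lower in Scx- day 7, 5 higher and 4 lower in Scx+ day 7, 4 higher and 1 lower in Scx- day 14, and 4 higher and 5 lower in Scx+ day 14. Over all tested genes 58.2%, 61.3%, 43.9% and 55.9% were called in these comparisons in that order, a larger share than of this list in each. Fabp4, a fatty acid binding protein of capillary endothelium and adipocytes, was called lower in each, with log2 fold changes of -3.05, -3.55, -2.47 and -2.78 in that order. Its adjusted p was at most 0.00083. Adipocyte genes were called lower in the same comparisons, and their part in the level of Fabp4 was not tested. Ecscr, an endothelial surface protein of cell movement, was at 0.68 ± 0.24, 1.19 ± 0.24, 1.13 ± 0.24 and 1.14 ± 0.24 (SE), called higher in each, and Clec14a, an endothelial C-type lectin, was at 0.81, 1.21, 1.38 and 1.46, also called in each. Fli1, an ETS factor related to Erg, was called higher in Scx- day 7 (1.10), Scx+ day 7 (1.28) and Scx+ day 14 (1.11), while Erg itself was not called. In Scx- day 14 Fli1 averaged 1056 ± 254 units (SD, n = 4), against 582 ± 341 in control (SD, n = 3). Fli1 is also expressed by leukocytes and platelets, whose genes were higher in the same libraries, and their part was not tested. Most of the 34 genes went the other way. In the order Scx- day 7, Scx+ day 7, Scx- day 14 and Scx+ day 14, 27, 21, 22 and 24 estimates were negative. The positive ones were 7, 13, 12 and 10, and the medians -0.70, -0.13, -0.11 and -0.26. Podxl averaged 2102, 2525, 2866 and 2166 units, against 5531 in control. Adgrf5 averaged 2995, 3688, 5809 and 4443 units, against 8898 in control.

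Genes for ligands and co-receptors of the 4 receptors in the list were also set against control. Of 12 genes for VEGFs, angiopoietins, co-receptors and related factors, 7 were called higher and 3 lower in Scx- day 7, 7 and 2 in Scx+ day 7, 4 and 2 in Scx- day 14, and 6 and 2 in Scx+ day 14, beside 58.2%, 61.3%, 43.9% and 55.9% of all genes called in either direction. Both VEGF-A and VEGF-B, ligands of Flt1, had lower transcripts in every stimulated group: Vegfa had log2 fold changes of -1.90 ± 0.30, -2.20 ± 0.30, -1.35 ± 0.30 and -1.63 ± 0.30 and Vegfb of -2.06 ± 0.26, -2.34 ± 0.26, -1.58 ± 0.26 and -1.89 ± 0.26 (SE) in the order Scx- day 7, Scx+ day 7, Scx- day 14, Scx+ day 14. In level, Vegfa was 1321 to 4146 units in Scx- day 7, 1401 to 2204 in Scx+ day 7, 2282 to 4126 in Scx- day 14 and 1984 to 2995 in Scx+ day 14, against 6044 to 9122 units in control, with no overlap. Both are strongly expressed in muscle, whose share moved in the same direction, and its part was not tested. Over the 12 genes, 8 estimates were positive and 4 negative in each stimulated group. Pgf, the gene of placental growth factor, is among the 12, and its values are not given here. Angpt4, an angiopoietin that binds the product of Tek, was at 52.8 to 103 units in Scx- day 7 and 0 to 4.4 in control. These control values lie near 0, beside the 2 units added before the log2, so its fold change is imprecise. Its values in the other stimulated groups are not given here. A large rise of some gene of the list was not limited to Scx- day 7. The highest log2 fold change among the 12 genes, whichever gene had it, was 4.66 in Scx- day 7, 4.61 in Scx+ day 7, 4.13 in Scx- day 14 and 4.47 in Scx+ day 14. In Scx+ day 14 that gene was Thbs1. Thbs1, an inhibitor of vessel growth, was called higher at 3.58, 4.28, 2.83 and 4.47 in the same order. Vegfc and Vegfd, ligands with a main role in lymphatic growth, were at 0.79 and 1.78 in Scx- day 7 and 1.15 and 1.12 in Scx+ day 7, all called higher. At day 14 Vegfd was called higher in Scx- (1.63) and Scx+ (1.35), and Vegfc was called higher in Scx+ (0.98) and not in Scx- (0.56, limma adjusted p = 0.139). Between the genotypes none of the 12 was called at either day (2 with an unadjusted p below 0.05 at each). Nrp1, a co-receptor of Kdr, was lower at day 14 than at day 7 in Scx- by 0.73 ± 0.17 (limma, adjusted p = 0.0157).

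Genes of vessel subtypes and of the vessel wall were read the same way. Of 13 arterial and tip cell genes, 4 were called higher and 1 lower in Scx- day 7, 5 and 1 in Scx+ day 7, 2 and 0 in Scx- day 14, and 5 and 1 in Scx+ day 14. These shares of the list are below those of all genes called, 58.2%, 61.3%, 43.9% and 55.9%. Cxcr4, the receptor of a chemokine that guides sprouting vessels and is carried by many leukocytes, was higher by 4.54, 4.18, 3.15 and 3.59 in that order, and Apln, a peptide of tip cells, by 2.24, 2.64, 1.83 and 1.70. Dll4, the Notch ligand of tip and arterial cells, was at -0.57, -0.25, -0.26 and -0.13 and was not called. Of 8 venous genes, 2 were called higher in Scx- day 7, 2 in Scx+ day 7, 2 in Scx- day 14 and 1 in Scx+ day 14, and 0 lower in each. These shares too are below those of all genes called, and not every called venous gene is named here. Vcam1, an adhesion molecule also made by fibroblasts, was higher by 3.21, 3.21, 2.76 and 2.84, and Selp, Sele and Ackr1 were not called. Among 6 lymphatic genes, Pdpn, which fibroblasts also express, was called higher in each group, and Lyve1 lower in Scx- day 14 (-1.38 ± 0.47; limma, adjusted p = 0.0245). Flt4, the receptor of the lymphatic ligands, and Prox1, the lymphatic transcription factor, were not called. Of 14 pericyte and mural genes, 5 were called higher and 2 lower in Scx- day 7, 5 and 3 in Scx+ day 7, 4 and 0 in Scx- day 14, and 5 and 1 in Scx+ day 14. Their median log2 fold changes were -0.09, 0.24, 0.08 and -0.09 in that order. In the same order 8, 5, 6 and 8 of the 14 estimates were negative, and the lowest were -2.84, -3.44, -1.52 and -2.73. Among the genes called higher, Pdgfrb, the receptor that draws pericytes to vessels, was at 1.29, 1.62, 1.11 and 1.45, called in each group. None of these 4 lists had a gene called between the genotypes at either day.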

How the data were processed

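The plantaris tendon RNA of 19 libraries was analysed from a deposited table of scaled signal per gene, which the authors made with tools that the submitters' processing notes name without versions as FastQC, STAR and DESeq2, on mm10. The authors' deposited table of comparisons gives log2 fold changes, their standard errors (by unit a score with no fixed range) and adjusted p-values, with the adjustment method not stated, per the file headers. The values are scaled and not whole. Per library, 19.5% to 59.0% of low values lay within 0.1 of a whole multiple of a step, where chance gives 20%. The step was the most frequent low value of the library and ran from 0.592 to 8.826 units. Such a step need not be 1 read, so the check could not settle whether reads can be recovered. No count test was run, the read depth is unknown, and no interval or floor from counts is given. Whether the libraries were stranded is not stated.

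A further scaling between libraries divided each by its median ratio to the geometric mean across libraries, taken on 13703 genes that no library listed at 0 (factors 0.838 to 1.09). Genes with at least 10 units in at least 3 libraries were kept, 16625 of 24972 (4029 were at 0 throughout). One limma 3.58.1 model (R 4.3.3) of the 5 groups was fitted to log2(value + 2), so fold changes of low genes are understated. All p-values are from limma over all tested genes with Benjamini-Hochberg adjustment, called below 0.05. The scripts were tested on simulated data. No libraries were identical. The same-numbered libraries of different groups deviated together in 7 of 36 pairs (r over 0.1), which cannot exclude a pairing. The labels do not say what the numbers pair, so the main model used no pairing.

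The members and the other gene lists were chosen with earlier results of these data known. Named genes are all 10 members, up to 4 called genes per list by smallest p, and the 10 genes most like the members. Others named beside them, such as genes not called, were chosen after their values were seen. Promoters came from RefSeq and gene positions and exon lengths from GENCODE M21. Alternatives were the deposited scale, trimmed-mean factors, a pseudocount of 0.5, no filter, a replicate block, a muscle covariate, the compared groups alone, and leaving out each library or the muscle-rich pair.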

Additional observations from a re-analysis of the deposited data

How the results depend on the processing

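Not rescaling moved the median log2 fold change of all genes by over 0.1 in 5 of the 9 comparisons, for example to -0.22 for Scx- against Scx+ at day 14 and to -0.20 for Scx- day 14 against control, against 0.02 and 0.12 after rescaling, and the signs below are read against that. Between the genotypes, and between the days, 0 genes of the list were called under every alternative. Against control, the count of called genes in Scx- day 7 was 4 on the deposited scale, 1 with the muscle covariate and 1 to 7 on leaving out a library, against 2 as reported, and 7 came without control replicate 3. In Scx+ day 14 it was 1 with trimmed-mean factors, without the filter, with the muscle covariate and with the replicate block, and 1 to 2 on leaving out a library. In Scx+ day 7 and in Scx- day 14 it was 0 with the muscle covariate and 0 to 1 on leaving out a library. With the replicate block the count was 3 in Scx- day 7 and 1 in each of the other 3 stimulated groups, where it added Kdr in Scx- day 7 and lost Vwf in Scx+ day 14, and it changed no other call. Same-number correlations of deviations ran from -0.43 to 0.35, which cannot settle whether the numbers pair the samples. None of the values with a changed sign was called. The cause of the changes was not tested. On the deposited scale, the sign changed to Kdr -0.017, Tek -0.064, Tie1 -0.19, Emcn -0.22 and Erg -0.23 for Scx- against Scx+ at day 14, and to Erg -0.0040 for Scx+ day 14 against control, and to Pecam1 -0.27, Cdh5 -0.28 and Erg -0.24 for Scx- day 14 against control, and to Emcn -0.070 and Egfl7 -0.075 for Scx+ day 14 against Scx+ day 7. With trimmed-mean factors, the sign changed to Emcn -0.0042 and Erg -0.020 for Scx- against Scx+ at day 14. With the muscle covariate, the sign changed to Tie1 -0.058 and Emcn -0.0090 for Scx- against Scx+ at day 14, and to Pecam1 0.17 for Scx+ day 7 against control, and to Cdh5 0.16 for Scx+ day 14 against control, and to Cdh5 0.22 for Scx- day 7 against control, and to Egfl7 -0.080 for Scx+ day 14 against Scx+ day 7. Without the muscle-rich Scx- day 14 pair, the sign changed to Tek 0.16, Tie1 0.082 and Egfl7 0.067 for Scx- day 14 against control.

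Leaving out 1 library at a time, the log2 fold change ran over these ranges for Scx+ day 7 against control: Pecam1 -0.57 to 0.12, Kdr -0.36 to 0.060, Tek -0.58 to 0.10, Vwf -0.95 to 0.15, Emcn -0.57 to 0.28, Cdh5 -0.058 to 0.48, Tie1 -0.20 to 0.62 and Erg -0.022 to 0.46. For Scx+ day 14 against control they were Pecam1 -0.62 to 0.072, Tek -0.65 to 0.019, Tie1 -0.67 to 0.15, Emcn -0.53 to 0.32 and Erg -0.079 to 0.41. For Scx- day 14 against control they were Tek -0.48 to 0.19, Tie1 -0.62 to 0.22, Vwf -1.04 to 0.064, Emcn -0.51 to 0.34, Egfl7 -0.43 to 0.19, Erg -0.091 to 0.41, Pecam1 -0.27 to 0.42 and Cdh5 -0.24 to 0.40. For Scx+ day 14 against Scx+ day 7 they were Emcn -0.12 to 0.20, Egfl7 -0.13 to 0.22, Erg -0.26 to 0.10, Pecam1 -0.28 to 0.18 and Tek -0.17 to 0.026. For Scx- against Scx+ at day 14 they were Tie1 -0.17 to 0.43, Emcn -0.14 to 0.19, Erg -0.18 to 0.26, Kdr -0.032 to 0.72 and Tek -0.0099 to 0.48.

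Of the values under alternatives that kept every library or left out the muscle-rich pair, 635 kept direction and side of the threshold, 8 lost a call, 5 gained one and 22 changed sign. On leaving out single libraries these were 671, 15, 7 and 67. The read depth is unknown, so the precision of low values rests on the spread between 3 or 4 libraries.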
